A study of Mus musculus with 12 samples.

Results

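The genes described here are those of the response to low oxygen, of glucose use and of the balance of adenine nucleotides that the panel holds: *Hif1a*, *Ldha*, *Slc2a1*, *Slc2a5*, *Vegfa* and *Ak1*. They were picked by name and make up 6 of the 770 genes measured. RNA of sorted mouse microglia, the resident macrophages of the central nervous system (CNS), was measured with the Neuroinflammation panel of the NanoString nCounter, which counts molecules of RNA directly through barcoded probes, with no amplification step. Of the 12 samples, 4 were P-ERK1/2 High microglia of aged mice (samples 2, 5, 7 and 8), 4 were P-ERK1/2 Low microglia of aged mice (samples 3, 6, 9 and 12), and 4 were microglia of adult mice (samples 1, 4, 10 and 11). The aged cells were divided at the sorter by staining for ERK1/2 phosphorylated at its activating threonine and tyrosine, and these fractions are called High and Low below. The adult cells were not divided, so a comparison with adult sets a gated fraction against a whole population.

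All groups came from C57B6 mice that were hemizygous for Cx3cr1-CreERT2, a tamoxifen-activated Cre recombinase driven from a promoter of microglia and other myeloid cells, and that were wild type at Ulk1, so no gene was deleted in any of them. By the labels the adult mice were 12 to 20 weeks old, the aged mice were over 80 weeks old, and mice and cells received no treatment, though the study's methods and legends describe tamoxifen for this line. Each sample pooled the CNS of a male and a female, cells were enriched with CD11b beads and then fixed, permeabilized and sorted as YFP+ cells with intermediate CD45 and no Ly6G. Adult sample 11 is marked in the labels as excluded for poor quality, so adult means and tests use 3 samples, with sample 11 named beside the results it touches.

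HIF-1α, the product of *Hif1a*, is the oxygen-regulated subunit of the transcription factor HIF-1, and its amount is set mostly by breakdown of the protein, with transcription raised by NF-κB in myeloid cells. HIF-1 binds the core letters ACGTG or GCGTG in regulatory DNA and raises genes of glucose uptake (*Slc2a1*, the glucose transporter GLUT1), of the end of anaerobic glycolysis (*Ldha*, the lactate dehydrogenase subunit that reduces pyruvate to lactate) and of vessel growth (*Vegfa*). *Slc2a5* encodes the fructose transporter GLUT5, used as a microglial marker, and *Ak1* the cytosolic adenylate kinase that interconverts ADP with ATP and AMP. Microglia can shift towards glycolysis when they are activated.

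Each gene was measured by 1 probe in the transcript, so its promoter was not assayed. The 250 bases before the start of 3 genes known as HIF targets are shown because they differ in how often they hold the core ACGTG, which stands in capitals, read on either strand. They are RefSeq sequence of build GRCm38.p6, written 5′ to 3′ on the strand of the gene. *Ldha* lies at chr7:46845554-46845803 on the plus strand, *Slc2a1* at chr4:119108495-119108744 on the plus strand and *Vegfa* at chr17:46032378-46032627 on the minus strand.
Ldha: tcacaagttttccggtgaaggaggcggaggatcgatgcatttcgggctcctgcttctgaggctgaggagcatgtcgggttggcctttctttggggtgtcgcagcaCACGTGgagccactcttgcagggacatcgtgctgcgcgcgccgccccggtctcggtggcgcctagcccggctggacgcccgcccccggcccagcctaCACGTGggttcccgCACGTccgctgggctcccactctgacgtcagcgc
Slc2a1: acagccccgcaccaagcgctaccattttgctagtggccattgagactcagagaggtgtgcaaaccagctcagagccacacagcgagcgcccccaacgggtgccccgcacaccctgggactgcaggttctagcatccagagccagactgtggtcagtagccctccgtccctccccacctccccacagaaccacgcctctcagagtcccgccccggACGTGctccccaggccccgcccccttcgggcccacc
Vegfa: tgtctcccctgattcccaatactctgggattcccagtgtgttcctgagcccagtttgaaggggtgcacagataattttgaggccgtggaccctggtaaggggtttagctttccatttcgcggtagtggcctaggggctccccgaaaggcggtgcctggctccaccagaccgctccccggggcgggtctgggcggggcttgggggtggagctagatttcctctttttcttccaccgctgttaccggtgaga
The *Ldha* window held 3 such matches, 145, 48 and 34 bases before the start, of which the first and second are the palindrome CACGTG, while the window of a later *Ldha* start held 0. The *Slc2a1* window held 1 match, 36 bases before the start, and this *Vegfa* window held 0, while a later *Vegfa* start held 1, 211 bases before it. *Hif1a* held 2 matches, *Slc2a5* held 0, and of the 4 *Ak1* starts 1 held a match. ACGTG was found in 16.6% of the 32851 windows of 250 bases in the table. Counted by gene, a match in any window was found for 4998 of all 27025 genes. Among the 601 panel genes that have a window in it, 145 (24.1%) had such a match. The other core, GCGTG, not marked in capitals, had 1 match in the *Slc2a1* window shown, 0 in the *Ldha* and *Vegfa* windows shown, and 1 at a later start of each of *Ldha*, *Vegfa* and *Ak1*. It was found in 28.2% of all windows and, counted by gene, in 8338 of all 27025 genes and 266 (44.3%) of the 601 panel genes. A match says only that these letters stand in the window.

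The values below are normalized values as deposited, which are counts scaled to 13 housekeeping genes, and above background means, for a given sample, a count more than 2 SD over the mean count of its 8 negative probes. The depth of the samples moved with the groups. The totals ran from 650965 to 1539936 counts in High, with 589 to 673 genes above background. They ran from 123798 to 157209 in Low, with 410 to 484 genes, and from 137980 to 326575 in the adult samples kept, with 417 to 560. Sample 11 held 1464449 counts, with 16 genes listed at exactly 1. All 11 microglial markers were above background in every High sample. In Low, *P2ry12* and *Gpr34* were above it in 0 of 4 samples, *Tmem119* and *Sall1* in 1, and *Cx3cr1* and *Fcrls* in 3, while in adult *P2ry12*, *Gpr34* and *Cx3cr1* were above it in 2 of 3 samples, and the other markers were above it in every sample of these groups. Of these 11 markers, 5 were called higher in High than in Low (*Tmem119*, *P2ry12*, *Sall1*, *Gpr34* and *Itgam*), where 28.2% of the panel was, and 1 lower (*Tyrobp*), where 9.61% was, by the limits given below. Set against the Low background, *P2ry12* was at least 1.71-fold and *Gpr34* at least 1.27-fold higher, short of the fold limit.

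*Hif1a* was lower in aged Low microglia than in adult microglia and was spread widely in High. Its normalized value was 1291, 1463 and 1463 in adult samples 1, 4 and 10. It was 644, 740, 658 and 607 in Low samples 3, 6, 9 and 12. In High it was 665, 1067, 1634 and 732 in samples 2, 5, 7 and 8. The Low samples all lay below the adult ones, while in High samples 2 and 8 lay in the range of Low and sample 7 above every adult sample.

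*Ldha*, which acts downstream of HIF-1 in glycolysis, ran the other way between adult and Low. It read 2675, 3630 and 2666 in the adult samples 1, 4 and 10. It read 6895, 6791, 6514 and 9333 in Low samples 3, 6, 9 and 12. In High it read 5442, 6293, 2391 and 5494 in samples 2, 5, 7 and 8. All Low samples lay above the kept adult and the High samples, while the excluded adult sample 11, at 7525, lay above Low samples 3, 6 and 9. High sample 7, the one with the highest *Hif1a*, had the lowest *Ldha* of the 12 samples.

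*Slc2a1*, the main glucose transporter of the list, was lowest in High. Its normalized value was 204, 210 and 208 in adult samples 1, 4 and 10. It was 244, 242, 185 and 299 in Low samples 3, 6, 9 and 12. It was 157, 55.04, 97.7 and 120 in High samples 2, 5, 7 and 8. All High samples lay below the Low and the kept adult samples, which overlapped, while the excluded adult sample 11, at 21.7, lay below every High sample. Before scaling, these values rest on 77 to 129 counts in High, 69 to 73 in Low and 84 to 180 in adult, so before scaling High lay above Low and overlapped adult. The factors that turn these counts into normalized values were 0.715 to 1.27 in High, 2.68 to 4.10 in Low and 1.16 to 2.47 in adult.

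*Slc2a5*, the fructose transporter, was above background in 0 of the 12 samples. Its normalized value was 12.8 to 52.2 in the 3 adult samples, 13.4 to 33.9 in Low and 12.7 to 18.0 in High, all within the reach of the negative control probes, so no fold change is given. Its 5 to 23 counts per sample do not show that the transcript was absent.

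*Vegfa*, a secreted growth factor for endothelium, was highest in High. It read 177, 185 and 119 in adult samples 1, 4 and 10. It read 227, 182, 214 and 258 in Low samples 3, 6, 9 and 12. It read 623, 1103, 544 and 775 in High samples 2, 5, 7 and 8. No Low or kept adult sample reached any High sample, with sample 5, the most deeply counted, at the top, and the excluded adult sample 11, with a similar total, read 1214. These values rest on 484 to 1543 counts in High, 52 to 80 in Low and 48 to 159 in adult samples 1, 4 and 10.

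*Ak1*, the adenylate kinase, followed the pattern of *Slc2a1*. It read 914, 1216 and 803 in adult samples 1, 4 and 10. It read 891, 904, 910 and 1099 in Low samples 3, 6, 9 and 12. It read 559, 232, 481 and 452 in High samples 2, 5, 7 and 8. The High samples all lay below the Low and the kept adult samples, which overlapped, and sample 5 was the lowest of them. The excluded adult sample 11 read 220, below every High sample.

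**Figure D1:**
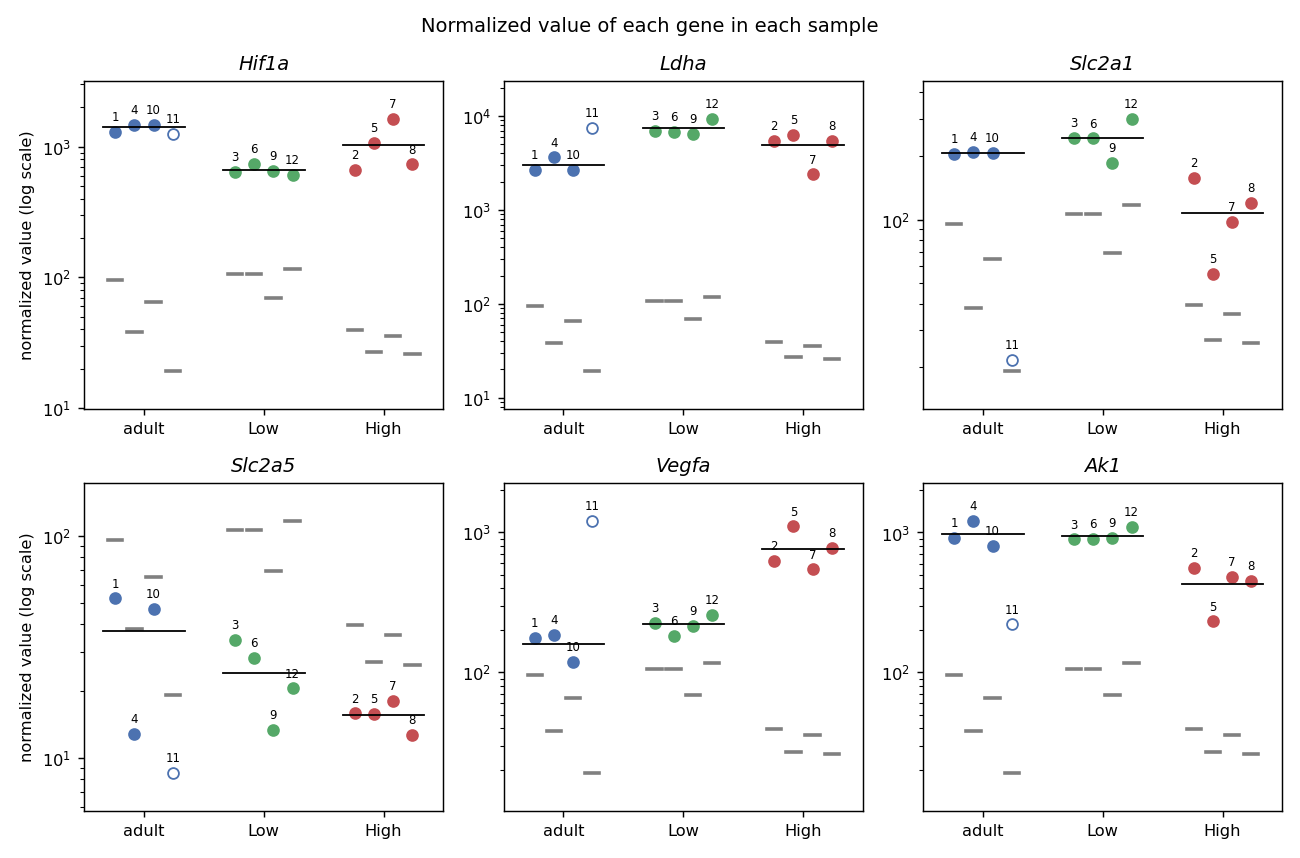
Normalized value (log axis) of each of the 6 genes in each sample, numbered and grouped as adult, Low and High, with black lines at the group means of the kept samples, the excluded adult sample 11 as an open circle and grey ticks at each sample's background. *Vegfa* was highest and *Slc2a1* and *Ak1* lowest in High among the kept samples, Low and adult samples do not overlap in *Hif1a* and *Ldha*, and *Slc2a5* lay below background in every sample.

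The comparison of High with Low asks how the aged microglia that stained high for phosphorylated ERK1/2 differ from those of the same age that stained low. In these bulk samples, fewer cells of a type and less RNA per cell cannot be told apart. Each p-value sets a difference between groups against the spread between pooled samples. *Vegfa* was higher and *Slc2a1* and *Ak1* were lower in High, so that 3 of the 6 genes passed both limits (p under 0.01, log2 fold change beyond 1), where 37.8% of all panel genes did. By direction 1 gene was higher, against 28.2% of the panel, and 2 were lower, against 9.61%. The groups did not overlap in 4 of the 5 genes above background (*Ldha*, *Slc2a1*, *Vegfa* and *Ak1*), as in 49.4% of the panel. Over all 770 genes the log2 fold change had a median of 0.26.

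*Vegfa* rose from 220 ± 31.5 to 761 ± 247 (SD, n = 4 each), a log2 fold change of 1.74 (SE 0.26, 95% confidence interval 1.18 to 2.30, limma adjusted p = 2.1e-04). It was higher under all 6 scalings tried, though scaling to equal totals reduced the value to 0.72, below the fold limit. The value was 1.55 to 1.89 when any 1 sample was left out. Of 9 endothelial marker genes, 4 (*Cldn5*, *Emcn*, *Esam* and *Flt1*) were also called higher in High, where 28.2% of the panel was. In High 7 were above background and the list summed to 780 to 1528, against 298 to 492 in Low. In Low *Cldn5*, *Esam*, *Flt1*, *Nostrin*, *Pecam1*, *Tie1* and *Tmem204* were above background in 0 samples. Above background in both groups, 1 of 9 (*Emcn*) was called higher, against 17.9% of the panel. Over the Low background *Cldn5* was at least 1.35-fold, *Esam* at least 2.02-fold and *Flt1* at least 2.38-fold higher. Of 7 astrocyte marker genes, 3 (*Gja1*, *Kcnj10* and *Sox9*) were called higher and 0 lower, where 28.2% and 9.61% of the panel were. The sums were 1442 to 2164 against 610 to 849 in Low, where *Aldh1l1*, *Kcnj10*, *Slc1a3*, *S100b* and *Agt* were above background in 0 samples. Above background in both groups, 2 of 7 (*Gja1* and *Sox9*) were called higher, against 17.9% of the panel. *Kcnj10* was at least 1.72-fold higher over the Low background, short of the fold limit. The mean values of *Slc1a3*, *S100b* and *Agt* were no higher in High (30.7, 35.6 and 24.1) than in Low (60.0, 48.7 and 28.7), where the background itself stood at 69.2 to 117 normalized units against 26.1 to 39.5 in High. The sort on CD11b, YFP and intermediate CD45 selects against both cell types. Astrocytes make *Vegfa* as well, and the part of these transcripts, and of depth, in the *Vegfa* difference was not tested.

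*Slc2a1* was 108 ± 42.7 in High and 242 ± 46.9 in Low, a log2 fold change of -1.24 (SE 0.31, 95% confidence interval -1.92 to -0.56, limma adjusted p = 0.0057), and *Ak1* was 431 ± 140 and 951 ± 99.1, a log2 fold change of -1.21 (SE 0.28, 95% confidence interval -1.82 to -0.60, limma adjusted p = 0.0035). Without High sample 5 the values were -0.96 and -0.93 and neither gene reached the fold limit, so that 1 of the 6 genes, *Vegfa*, was still called. With the 6 most stable housekeeping genes as the scale they were -0.70 and -0.66 and did not pass. Both stayed below 0 under 5 of 6 scalings and were above it, at 0.73 and 0.78, where the positive control probes alone set the scale, a setting that moved the median of all genes to 2.14.

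*Ldha* did not pass the test between the aged groups, at 4905 ± 1721 in High and 7383 ± 1310 in Low, a log2 fold change of -0.67 (95% confidence interval -1.34 to 0.01, limma adjusted p = 0.088). High sample 7 carried much of that value, which was -0.35 without it. It passed under equal totals (-1.69) and quantile normalization (-1.26), and with the opposite sign under positive control scaling (1.32). *Hif1a* did not pass either, at 1024 ± 443 and 662 ± 56.0, a log2 fold change of 0.54 (95% confidence interval -0.09 to 1.16, limma adjusted p = 0.13), with 0.28 when sample 7 was left out, calls under positive control scaling (2.52) and with the 6 most stable housekeeping genes (1.08), and values below 0 under equal totals (-0.49) and quantile normalization (-0.060). The SD of *Hif1a* in High, 443, was far above the 56.0 of Low.

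The comparison of Low with adult asks what sets these aged cells apart from those of young adults, with the difference in gating between them. *Ldha* rose and *Hif1a* fell, so 2 of the 6 genes were called, against 10.8% of the panel, 1 higher against 8.05% and 1 lower against 2.73%. *Ldha* went from 2990 ± 554 (n = 3) to 7383 ± 1310 (n = 4), a log2 fold change of 1.30 (SE 0.19, 95% confidence interval 0.86 to 1.74, limma adjusted p = 0.0028), and *Hif1a* from 1405 ± 99.1 to 662 ± 56.0, a log2 fold change of -1.09 (SE 0.14, 95% confidence interval -1.40 to -0.77, limma adjusted p = 0.0016). Neither gene overlapped between the groups, as did not 36.5% of the panel. Both calls held without each sample in turn, with log2 fold changes of 1.19 to 1.45 for *Ldha* and -1.15 to -1.05 for *Hif1a*. *Ldha* kept its sign under all 6 scalings but fell short of the fold limit under equal totals, at 0.92, and with sample 11 among the adults, at 0.97, since that sample read 7525. Under positive control scaling it was 0.49 and did not pass.

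Of 10 early genes known to be induced by cell isolation, 5 (*Fos*, *Egr1*, *Nfkbia*, *Ccl4* and *Tnf*) were also higher in Low than in adult, where 8.05% of the panel was. None was lower, where 2.73% of the panel was, and the median log2 fold change over the list was 0.87 against 0.10 over all genes. The list summed to 8128 to 9795 in Low, 3859 to 5688 in the 3 adult samples and 4890 to 10403 in High, with *Il1b* above background in 0 samples of the former groups. Against Low, High had 0 of the 10 higher and 3 lower (*Atf3*, *Ccl4* and *Tnf*), where 28.2% and 9.61% of the panel were. Against adult it had 3 higher (*Fos*, *Nfkbia* and *Ccl3*) and 1 lower (*Atf3*), where 29.2% and 7.66% of the panel were. Of the 11 microglial markers, 0 were higher in Low than in adult, where 8.05% of the panel was, and 3 lower, where 2.73% was. The lower ones were *Fcrls* (-2.31), *Olfml3* (-1.56) and *Tmem119*, above background in 1 of 4 Low samples. By limma 10 had an unadjusted p under 0.05, as did 302 of the 770 panel genes. Of these 10, *Cx3cr1* (0.79), *Csf1r* (0.58), *Trem2* (0.65) and *Tyrobp* (0.75) were above 0. *Fcrls*, *Olfml3*, *Tmem119*, *Sall1*, *P2ry12* and *Gpr34* were below it, the last 2 undetected in Low. Against adult, High had 2 of the 11 markers higher (*P2ry12* and *Itgam*) and 2 lower (*Olfml3* and *Fcrls*), where 29.2% and 7.66% of the panel were. The part of both lists in the values of the 6 genes was not tested.

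The other genes above background did not pass between Low and adult. The log2 fold change was 0.21 for *Slc2a1* (95% confidence interval -0.21 to 0.62, limma adjusted p = 0.43) and turned to -0.18 under equal totals and -0.60 under positive control scaling. It was 0.47 for *Vegfa* (95% confidence interval 0.00 to 0.95, limma adjusted p = 0.13) and turned to -0.34 under positive control scaling. For *Ak1* it was -0.02 (95% confidence interval -0.44 to 0.39, limma adjusted p = 0.93), so with the 3 kept adult samples a difference beyond the fold limit lay outside the interval for each of these genes. With sample 11 among the adults the values were 1.00 for *Slc2a1* (SE 0.69), -0.26 for *Vegfa* and 0.51 for *Ak1*, and these did not pass either.

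High was also set against adult, sharing its samples with the first comparison and the adult samples with the second. Here *Vegfa* was higher and *Ak1* lower, 2 of the 6 genes against 36.9% of the panel, 1 higher against 29.2% and 1 lower against 7.66%. *Vegfa* was 761 ± 247 (n = 4) against 160 ± 36.3 (n = 3), a log2 fold change of 2.21 (SE 0.31, 95% confidence interval 1.54 to 2.89, limma adjusted p = 2.3e-04), and 2.01 to 2.36 without each sample in turn. With sample 11 included it was 1.48 and no longer passed, since that sample read 1214, and under equal totals it was 0.80 and did not pass. Against adult, 2 of the 9 endothelial markers (*Esam* and *Flt1*) were higher, where 29.2% of the panel was. Above background in both groups, 1 of 9 (*Flt1*) was called higher, against 23.4% of the panel. *Esam* was at least 3.20-fold higher over the adult background. *Tie1* and *Tmem204*, whose fitted values were lower, were above background in 0 High samples and in 0 and 1 adult samples. The list summed to 396 to 571 in adult, with *Esam*, *Nostrin* and *Tie1* above background in 0 samples. Of the 7 astrocyte markers 3 (*Gja1*, *Kcnj10* and *Sox9*) were higher, where 29.2% of the panel was, with adult sums of 494 to 693. *Kcnj10*, *Slc1a3* and *Agt* were above background in 0 adult samples, and *Kcnj10* was at least 2.72-fold higher over the adult background. Above background in both groups, 2 of 7 (*Gja1* and *Sox9*) were called higher, against 23.4% of the panel. The part of both lists in the *Vegfa* value was not tested.

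*Ak1* was 431 ± 140 against 978 ± 214, a log2 fold change of -1.23 (SE 0.33, 95% confidence interval -1.96 to -0.50, limma adjusted p = 0.011). This call was lost without adult sample 1 (-1.27, with the p just past the threshold), without adult sample 4 (-1.06), without High sample 5 (-0.96) and with sample 11 among the adults (-0.70), and it was also lost under positive control scaling (-0.059) and with the 6 most stable housekeeping genes (-0.68). *Slc2a1*, at 108 ± 42.7 against 207 ± 2.73, did not overlap between the groups, as did not 50.3% of the panel, but missed the p threshold (log2 fold change -1.04, 95% confidence interval -1.78 to -0.29, limma adjusted p = 0.027). It passed with a spread shared by all 11 samples, at an adjusted p under 0.05 in place of p under 0.01, without High sample 2 (-1.25) and under median-of-ratios scaling (-1.41), equal totals (-2.44) and quantile normalization (-1.50), while it was -0.49 with the 6 most stable housekeeping genes, -0.24 with sample 11 among the adults and 0.13 under positive control scaling.

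*Hif1a* and *Ldha* did not pass against adult, with log2 fold changes of -0.55 (95% confidence interval -1.27 to 0.17, limma adjusted p = 0.19) and 0.64 (95% confidence interval -0.13 to 1.41, limma adjusted p = 0.15). Both values leaned on High sample 7, whose *Hif1a* and *Ldha* lay close to those of the adult samples. Without it they were -0.80 and 0.95, still inside the fold limit. *Hif1a* was above 0 under positive control scaling (0.63) and, barely, with the 6 most stable housekeeping genes (0.0064), and *Ldha* was below 0 under equal totals (-0.78) and quantile normalization (-0.20).

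**Figure D2:**
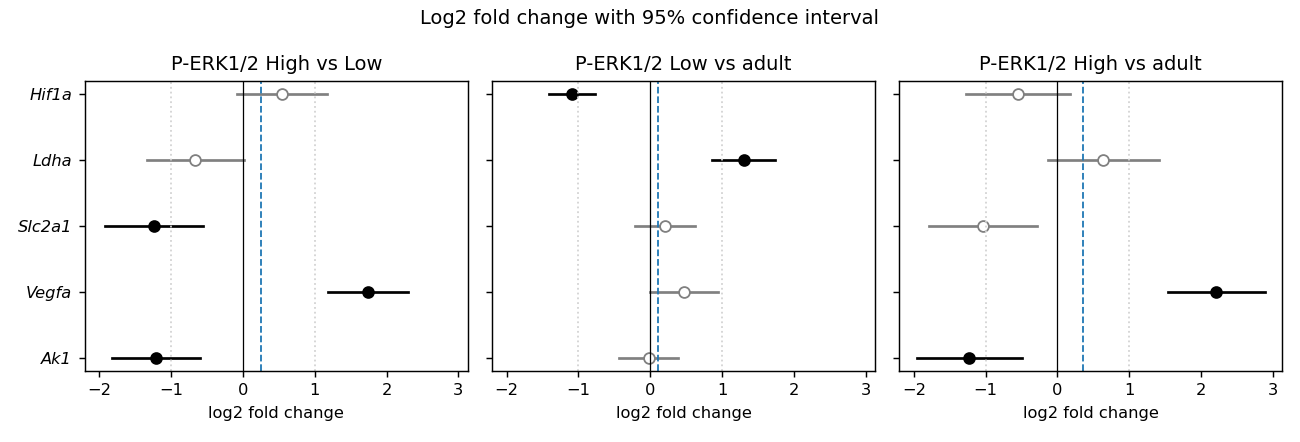
Log2 fold change with its 95% confidence interval for the 5 genes above background in the 3 comparisons, filled where it passed both limits (p under 0.01, log2 fold change beyond 1), with dotted lines at the fold limit and the median of all 770 genes as a dashed line. *Vegfa* stood at 1.74 and 2.21 in the comparisons with High, and *Hif1a* and *Ldha* at -1.09 and 1.30 between Low and adult, while the signs of *Slc2a1* and *Ak1* in High vs Low turn under positive control scaling alone.

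The ratio of the values of 2 genes in the same sample does not change when that sample is multiplied by 1 factor, as in all scalings tried but quantile normalization. Its size says nothing of which transcript was more abundant, since each probe has its own yield, so only its differences between samples are described. *Vegfa* over *Slc2a1* was 3.97 to 20.0 in High, 0.754 to 1.16 in Low and 0.571 to 0.883 in adult, with High apart from both. *Ldha* over *Hif1a* was 9.18 to 15.4 in Low and 1.82 to 2.48 in adult. In High it was 8.19, 5.90, 1.46 and 7.50 in samples 2, 5, 7 and 8, so 3 samples lay between Low and adult, and sample 7 lay below every adult sample. *Ak1* over *Slc2a1* had overlapping ranges in all groups, 3.56 to 4.92 in High, 3.65 to 4.93 in Low and 3.87 to 5.80 in adult, although both genes were lower in High on the deposited scale. The excluded adult sample 11 stood outside the adult range in all 3 ratios, with *Vegfa* over *Slc2a1* at 55.9, *Ldha* over *Hif1a* at 6.01 and *Ak1* over *Slc2a1* at 10.1.

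**Figure D3:**
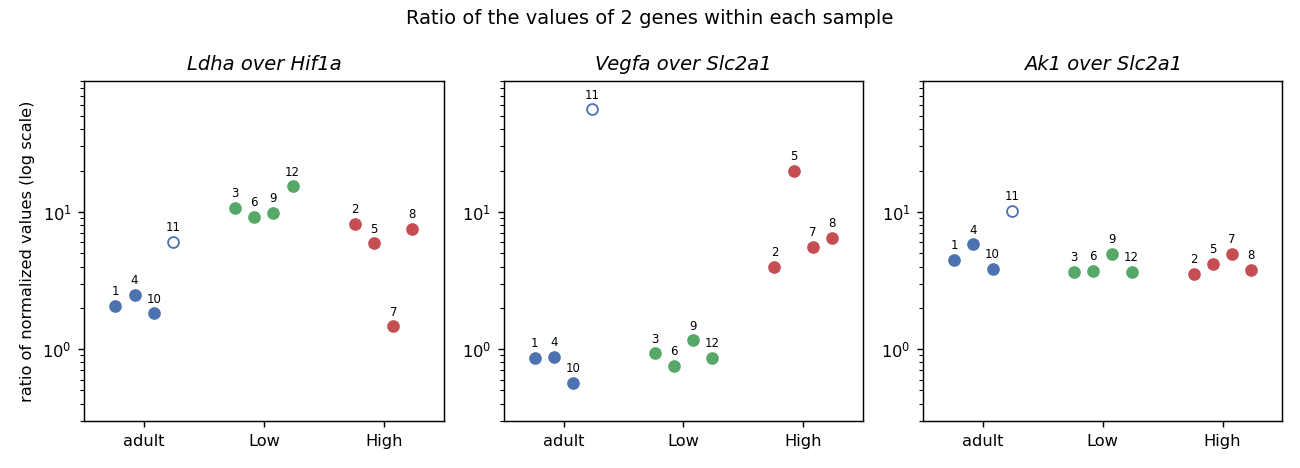
Ratio of the normalized values (log axis) of *Ldha* over *Hif1a*, *Vegfa* over *Slc2a1* and *Ak1* over *Slc2a1* within each numbered sample, with the excluded adult sample 11 open. *Ldha* over *Hif1a* separates Low from adult with High sample 7 at 1.46, *Vegfa* over *Slc2a1* is 3.97 or more in High, and *Ak1* over *Slc2a1* overlaps between the groups.

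Of 13 other hypoxia-inducible genes of the panel, 5 were higher in High than in Low, where 28.2% of the panel was, 2 were lower, where 9.61% was, and 6 did not pass, with a median log2 fold change of -0.05 against 0.26 over all genes. Both medians were 0 when each gene above background in no sample of 1 group was set at the least fold that its background allows, and at 0 where there was none. Among the higher ones were the histone demethylases *Kdm3a* (1.60), *Kdm4b* (1.58) and *Kdm5b* (2.56, above background in 2 of 4 Low samples), and *Bnip3l* (2.17), a receptor for the removal of mitochondria by autophagy. *Flt1*, a receptor of VEGF that is also an endothelial marker, was above background in all 4 High samples and in 0 of Low, at least 2.38-fold higher when Low is set at its background. The lower ones were *Bnip3* (-1.31), the close relative of *Bnip3l*, and *Hmox1* (-1.51), heme oxygenase, which also answers to oxidative stress. *Hilpda*, a lipid droplet protein, was at -0.99 and did not pass.

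Against adult, High had 5 of the 13 higher and 3 lower, where 29.2% and 7.66% of the panel were, with a median of 0.16 against 0.35 over all genes. With undetected genes at their bound the medians were 0.16 and 0, so the order of list and panel turned. The higher ones were *Bnip3l* (1.83), *Flt1* (1.85, above background in 2 of 3 adult samples), *Kdm3a* (1.04), *Kdm4b* (1.30) and *Kdm5b* (1.46). The lower ones were *Bnip3* (-1.22) and *Hmox1* (-1.32), and the growth factor *Tgfa*, which is given without a fold since it was above background in 1 of 4 High and 2 of 3 adult samples. Between Low and adult, *Hilpda* (1.15, above background in 2 of 3 adult samples) was higher and *Kdm5b* (-1.09, above background in 2 of 4 Low samples) lower. The median was -0.28 against 0.10 over all genes, and -0.087 against 0 with undetected genes at their bound.

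Of the coactivators of HIF-1 and the NF-κB subunits, the acetyltransferase *Ep300* and the subunit *Rela* were higher in High than in Low (1.71 and 1.41) and than in adult (1.79 and 1.45), while *Crebbp* (0.44 against Low) and *Nfkb1* (-0.32) did not pass. By limma 0 of the 4 passed between Low and adult, with 1 at an unadjusted p under 0.05. The VEGF coreceptor *Nrp2*, the other receptor gene beside *Flt1*, was lower in High than in Low (-1.40) and did not pass against adult (-0.93).

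The mitochondrial genes were higher or did not pass. In High against Low, 4 of 7 passed as higher and 0 as lower, where 28.2% of the panel was higher, but in 2 of the 4, *Cycs* and *Fdxr*, no Low sample was above background. Their High means of 42.4 and 58.2 lay under the Low background of 69.2 to 117, so no rise can be read for them. The other two, against 17.9% of the panel called higher and above background in both groups, were *Cox5b* (1.54), a subunit of the last complex of the respiratory chain, and *Coa5* (2.12), an assembly factor of that complex. With undetected genes at their bound the median was 0.85 against 0 over all genes. Against adult 5 of 7 passed as higher, where 29.2% of the panel did, and 4 without *Fdxr*, above background in 0 adult samples, against 23.4% of the panel. These were *Cox5b* (1.85), *Coa5* (2.38), the kinase *Pink1* (1.09) and *Mto1* (1.05, above background in 2 of 3 adult samples), itself one of the housekeeping genes, and the median with such bounds was 1.05 against 0. Between Low and adult 0 of the 7 passed by limma, 2 had an unadjusted p under 0.05, and the median was 0.19.

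Of 6 genes of energy and nutrient sensing, 3 passed as higher in High than in Low and 0 as lower, where 28.2% of the panel was higher. For 1 of them, *Tbc1d4*, which acts on glucose transporter traffic, 0 Low samples were above background and the High mean of 79.3 lay within the Low background, so no rise can be read. The others, against 17.9% of the panel called higher and above background in both groups, were the NAD-dependent deacetylase *Sirt1* (1.64) and *Eef2k* (1.71), the kinase that slows translation elongation. The median was 0.39 with *Tbc1d4* at 0, against 0 over all genes with such bounds. Against adult 3 of the 6 passed as higher and 1 as lower, where 29.2% and 7.66% of the panel did. *Tbc1d4*, above background in 0 adult samples, was at least 1.27-fold higher over the adult background. The other higher ones, against 23.4% of the panel called higher and above background in both groups, were *Sirt1* (1.17) and *Eef2k* (1.40). *Ulk1*, an autophagy kinase that is wild type in all these mice, was lower (-1.35). The median was 0.39 against 0 over all genes with bounds. Between Low and adult 0 of the 6 passed by limma, 3 had an unadjusted p under 0.05, and the median was -0.39.

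**Figure D4:**
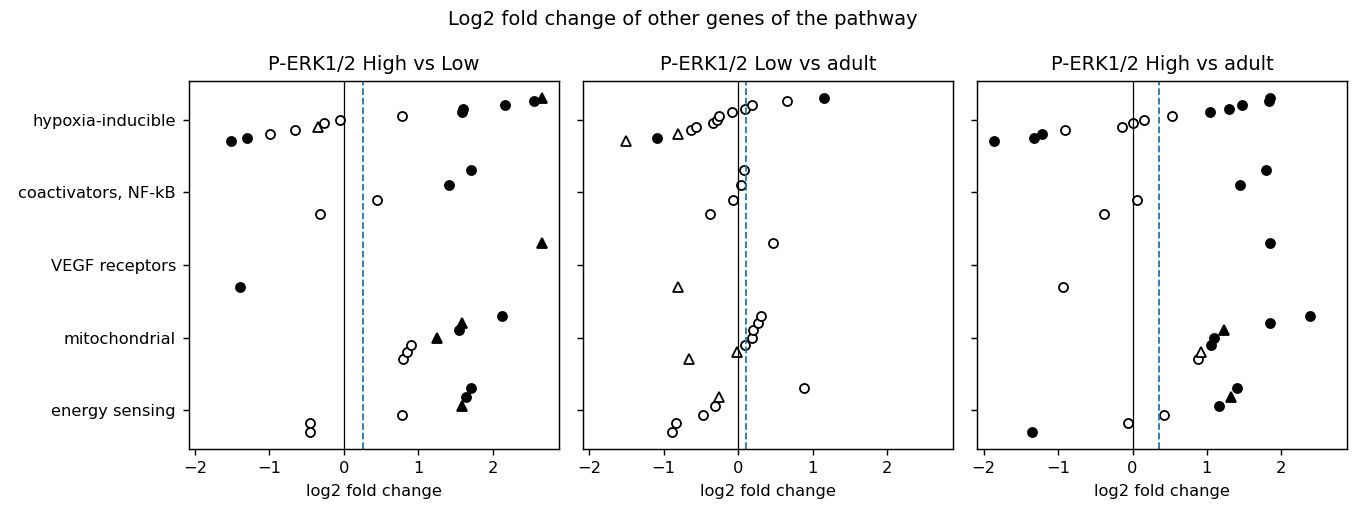
Log2 fold change on the deposited scale of other panel genes of the pathway, 1 point per gene, filled where it passed both limits (p under 0.01, log2 fold change beyond 1), in the 3 comparisons, with the median of all 770 genes as a dashed line. Genes above background in no sample of a group are triangles at their fitted value, which is not read as a fold. Counting circles, 2 of 7 mitochondrial genes were higher and 0 lower in High against Low, while 4 of 13 hypoxia-inducible genes were higher and 2 lower, against 17.9% and 8.57% of the panel.

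The genes whose pattern over the 11 samples came closest to each member were found by the root mean square difference of centred log2 values, where 0 is the same pattern. For *Hif1a* they were *Sqstm1* (0.19), *Gpr84* (0.28) and *Tgfbr1* (0.29), against a median over all genes of 0.82. For *Ldha* they were *Slamf9* (0.16), *Itgax* (0.19) and *Pcna* (0.22), with a median of 0.87. *Slc2a1* and *Ak1* shared *Bnip3* among their closest genes, at 0.15 and 0.13, beside *Txnrd1* (0.13) and *Prkar1a* (0.15) for *Slc2a1* and *Pdpn* (0.13) and the housekeeping gene *Lars* (0.16) for *Ak1*. For *Vegfa* they were *Man2b1* (0.19), *Tnfrsf10b* (0.21) and *Rpl28* (0.22), with a median of 1.00. The nearest for *Slc2a5*, *Ly6g*, *Myrf* and *Abcc8*, were at 0.40 to 0.42 and, like it, at or below background in most samples.

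The values also depend on how the samples are brought to a common scale. Between High and Low the median of all genes was 0.26 as deposited, 0.80 with the 6 most stable housekeeping genes, 0.00 with median-of-ratios scaling, -0.10 with quantile normalization, -0.76 with equal totals and 2.14 with the positive controls alone. Of these scalings, 5 multiply each sample by 1 factor and so move all genes and their median together, and only quantile normalization can change where a gene stands among the others.

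**Figure D5:**
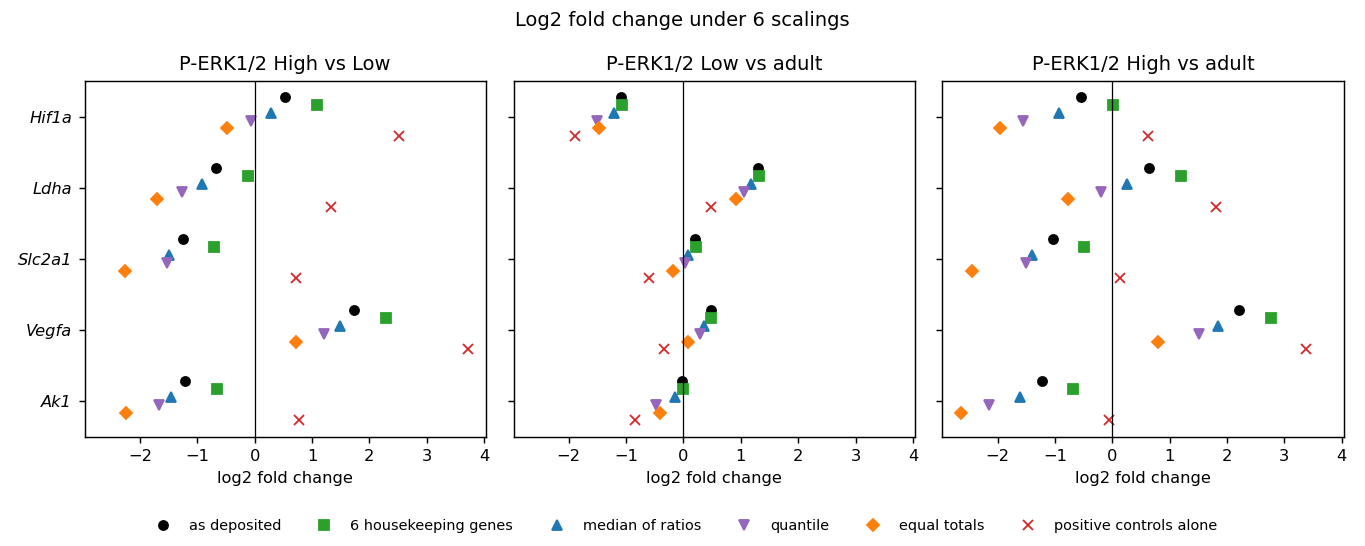
Log2 fold change of the 5 genes above background in the 3 comparisons under 6 ways of scaling the samples. *Vegfa* lay above 0 in both comparisons of High and *Ldha* above and *Hif1a* below 0 in Low vs adult under all 6, while *Slc2a1* and *Ak1* in High vs Low were below 0 except with the positive controls alone, and *Hif1a* and *Ldha* in the comparisons of High took both signs.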

How the data were processed

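The authors counted RNA on the nCounter and normalized the counts in nSolver (the sources used here give no version). The deposited table holds their normalized signal values, 1 per gene and sample, and all columns were mapped to a sample. Values are counts multiplied by 1 factor per sample, set by the 13 housekeeping genes, with no background subtraction: after division by the factor 99.8% lay within 0.1 of a whole number.

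Groups follow the labels, without adult sample 11. For each comparison, log2(value + 1) was fitted with limma 3.58.1 (R 4.3.3) over all 770 genes with no filter and with its 2 groups alone. A call needed p under 0.01 together with a log2 fold change beyond 1, and p-values were adjusted by the Benjamini-Hochberg method. Fold changes on this scale understate those of low genes. *Slc2a5*, above background in no sample, was not counted among calls. Of the gene names, 763 matched a RefSeq symbol and 7 a synonym.

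The members and lists were chosen with earlier results of these data known. The genes named are the 6 members, the called genes of each list described, with some uncalled genes given for comparison, the 3 genes closest to each member, and housekeeping genes. Alternatives covered scaling, pseudocount, a minimum value, the threshold, a shared spread and the samples included. Positive control scaling was chosen after seeing the data.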

Additional observations from a re-analysis of the deposited data

Results flagged for a closer look

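With sample 11 included, 18 sets of 4 values were examined for a sample far from the others, and 4 values stood apart. Chance alone sets 1 value apart in about 20 such sets. The excluded adult sample 11 stood far below the other adult samples in *Slc2a1*, at 21.7, and far above them in *Vegfa*, at 1214. Low sample 12, the sample with the fewest counts, stood above the others of its group in *Ldha*, at 9333, and in *Ak1*, at 1099.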

How the results depend on the processing

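Of 270 values recomputed for the 5 genes above background, 223 kept their direction and their side of the threshold, 14 newly passed it, 16 no longer passed it and 17 turned in sign. The count of the 6 genes called between High and Low was 1 to 3 without each sample in turn, and 1 without High sample 5, with 2 under the 6 most stable housekeeping genes and 4 under quantile normalization. Between Low and adult it was 2 without each sample in turn, 1 under equal totals, 1 under positive control scaling and 1 with all 4 adult samples. Between High and adult it was 1 to 3 without each sample in turn (1 without adult sample 1, adult sample 4 or High sample 5), 4 under quantile normalization and 0 with all 4 adult samples, where limma gave 1 gene, *Vegfa*, an unadjusted p under 0.05. Over the panel, positive control scaling called 658 genes between High and Low in place of 291 and 221 between Low and adult in place of 83. With all 4 adult samples 34 genes were called in Low and 49 in High, the latter in place of 284. Without each sample in turn the panel counts were 235 to 310, 75 to 95 and 225 to 303 in the order of the report.

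Between High and Low, *Hif1a* turned to -0.49 under equal totals and -0.060 under quantile normalization and passed at 1.08 with the 6 most stable housekeeping genes. It passed at 2.52 under positive control scaling, where *Ldha* also passed, at 1.32, while *Slc2a1* (0.73) and *Ak1* (0.78) turned in sign and did not pass. *Ldha* passed at -1.69 under equal totals and -1.26 under quantile normalization. Between Low and adult, *Slc2a1* turned to -0.18 under equal totals and -0.60 under positive control scaling, *Vegfa* to -0.34 under positive control scaling and -0.26 with all 4 adult samples, and *Ak1* to 0.51 with all 4 adult samples. Leaving out each sample in turn, *Ak1* ran from -0.15 to 0.14, above 0 without Low sample 3 or adult sample 4. Between High and adult, *Hif1a* turned to 0.63 under positive control scaling and 0.0064 with the 6 most stable housekeeping genes, *Ldha* to -0.78 under equal totals and -0.20 under quantile normalization, and *Slc2a1* to 0.13 under positive control scaling. *Hif1a* passed there at -1.96 under equal totals and -1.56 under quantile normalization, and *Ldha* at 1.81 under positive control scaling and 1.19 with the 6 most stable housekeeping genes. The cause of these changes was not tested. Under the 6 scalings the median of all genes lay between -0.68 and 0.11 in Low against adult, and between -1.04 and 1.48 in High against adult.

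No paired analysis was made, since each sample has its own number and the labels do not link High samples with Low ones. Whether a High and a Low sample came from the same pooled mice is not stated, and the tests treat all samples as independent. The planned tests on recovered counts were not run. Depth limits *Slc2a5*, at 5 to 23 counts, *Slc2a1*, at 69 to 180 in the kept samples, and *Vegfa*, at 48 to 159 in Low and the kept adult samples. With 3 or 4 samples a group, a gene that did not pass was not shown to be alike.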

Other observations

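Other lists of cell type markers were called as follows in High against Low, where 28.2% of the panel was higher and 9.61% lower. In Low, 10 of 11 oligodendrocyte, 9 of 10 neuronal, 11 of 11 T and NK cell, 4 of 4 B cell and 5 of 6 border macrophage and monocyte genes were above background in 0 samples, so the Low values behind most of these calls lie below background. Of 11 oligodendrocyte genes 1 was higher and 1 lower, of 10 neuronal genes 2 were higher and 2 lower, of 11 genes of T and NK cells 2 were higher, of 4 B cell genes 1 was higher, of 4 neutrophil genes 0 passed by limma, with 0 at an unadjusted p under 0.05, and of 6 genes of border macrophages and monocytes 2 were higher. Of the 13 housekeeping genes that set the scale, 1 was higher, *Supt7l*, with a log2 fold change of 3.34, above background in 1 of 4 Low samples. The 1 lower was *Lars*, with a log2 fold change of -1.22. Against adult 3 of the 13 were higher and 1 lower, where 29.2% and 7.66% of the panel were. The higher ones were *Supt7l* (3.06) and *Mto1* (1.05), each above background in 2 of 3 adult samples, and *Gusb* (1.47). The lower one was again *Lars* (-1.18).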
